A study of Mus musculus with 18 samples.

Results

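Bone-marrow-derived macrophages (BMDMs) that lack the IL-1 receptor were exposed for 3 h to medium taken from enteric glial cells (EGCs), and the comparison described here is between medium of IL-1β-treated glia and medium of resting glia. Both media came from primary EGC cultures, so only the treatment of the glia differs between them. CM-IL-1 was collected from EGCs after 24 h with 10 ng/ml of IL-1β, and CM-Veh from EGCs given vehicle instead. The glia were grown from the small bowel muscularis externa of Bl6 mice. The BMDMs of all groups carried the Il1R1-KO genotype, came from adult animals and had been matured with CSF-1 before the exposure. The receptor was deleted so that IL-1β left over in CM-IL-1 could not act on the macrophages through it. The comparison takes 8 of the 18 libraries of the series, 4 with CM-IL-1 and 4 with CM-Veh. A further group of 4 libraries from BMDMs in RPMI is given as a level only, because RPMI also differs from both conditioned media in its base medium.

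Macrophages read the cytokines in their surroundings through surface receptors. Many of these receptors signal through JAK kinases and STAT transcription factors, which switch on genes within hours. Among the earliest STAT targets are the SOCS proteins and CISH, which bind back to receptors or kinases and limit the same pathway. Other receptors act through NF-kB, MAP kinases or SMAD proteins, each with early target genes and feedback inhibitors of its own. Enteric glia are a source of cytokines and chemokines in the muscle layer of the inflamed gut, where resident macrophages lie beside them.

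The members of this comparison are genes, and those on which it turns most include both feedback inhibitors of JAK-STAT signaling and a repressor, Bcl6, that stood at the other end of the range. The promoter windows of Cish, Socs3 and Bcl6 are shown because each holds matches to the palindromic STAT pattern TTCNNNGAA, which is printed in capitals. The windows run from 250 bases before to 50 bases after a RefSeq start site on GRCm38.p6, 5′ to 3′ on the strand of the gene. Cish lies at chr9:107296409-107296708 on the plus strand, Socs3 at chr11:117969317-117969616 on the minus strand, and the windows of 2 Bcl6 start sites at chr16:23981234-23981533 and chr16:23988803-23989102 on the minus strand.
Cish: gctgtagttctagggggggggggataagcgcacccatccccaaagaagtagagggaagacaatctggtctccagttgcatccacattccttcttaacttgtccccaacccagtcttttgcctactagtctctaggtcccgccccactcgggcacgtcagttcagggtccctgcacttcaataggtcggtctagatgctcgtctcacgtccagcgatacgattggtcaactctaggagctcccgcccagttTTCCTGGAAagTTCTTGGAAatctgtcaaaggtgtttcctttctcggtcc
Socs3: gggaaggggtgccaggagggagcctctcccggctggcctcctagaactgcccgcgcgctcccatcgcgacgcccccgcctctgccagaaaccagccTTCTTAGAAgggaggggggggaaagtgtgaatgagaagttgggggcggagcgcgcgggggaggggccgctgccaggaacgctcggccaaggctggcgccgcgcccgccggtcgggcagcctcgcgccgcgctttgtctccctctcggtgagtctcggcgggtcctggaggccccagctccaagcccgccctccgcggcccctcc
Bcl6, start site 1: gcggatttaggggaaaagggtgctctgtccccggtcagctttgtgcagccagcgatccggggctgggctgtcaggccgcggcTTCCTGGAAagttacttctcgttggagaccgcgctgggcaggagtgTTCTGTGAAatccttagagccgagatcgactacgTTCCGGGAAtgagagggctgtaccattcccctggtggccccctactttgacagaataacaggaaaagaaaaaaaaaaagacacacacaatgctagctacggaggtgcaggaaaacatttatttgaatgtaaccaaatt
Bcl6, start site 2: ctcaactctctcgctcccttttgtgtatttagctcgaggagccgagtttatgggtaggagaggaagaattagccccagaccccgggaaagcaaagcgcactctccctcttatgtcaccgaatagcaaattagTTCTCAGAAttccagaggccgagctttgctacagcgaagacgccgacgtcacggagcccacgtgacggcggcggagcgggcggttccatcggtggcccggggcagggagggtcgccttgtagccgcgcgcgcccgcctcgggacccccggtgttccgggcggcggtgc
Cish holds 2 matches, TTCCTGGAA and TTCTTGGAA, which begin 0 and 11 bases after the start site. Socs3 holds TTCTTAGAA, whose first base lies at −154. The first Bcl6 window holds 3 matches at −168, −122 and −88, and the second holds TTCTCAGAA at −118. A match is a string of letters in a window and says nothing on whether a STAT protein binds there.

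The deposited table of the macrophages lists 11200 genes with 1 mean per group and no value per library. The means are the authors' least-squares means, scaled so that the columns have nearly equal sums (996786 with CM-IL-1 and 996561 with CM-Veh), and a value below is such a mean unless it is called a ratio, a fold or a log2 ratio. The spread between the 4 libraries of a group is therefore not known here, and no difference below is shown to be larger than that spread. No p-value is given. A single transcript, AY036118, accounted for 23.9% of the sum of all means in BMDMs given CM-IL-1, 21.4% in those given CM-Veh and 23.5% in those in RPMI, and mitochondrially encoded genes for 6.18%, 6.21% and 7.34%. All 18 macrophage markers had a row and none differed past 1.5-fold between the media (median log2 ratio −0.10, range −0.21 to 0.29). Of 13 glial and neural crest markers only Nes, an intermediate filament gene, had a row, at 31.0 with CM-IL-1 and 40.7 with CM-Veh. The glial markers Sox10, S100b and Gfap had none. The sums of the 6 fibroblast and smooth muscle markers with a row were 95.3 with CM-IL-1 and 86.7 with CM-Veh, and those of the 5 neutrophil markers with a row were 167 and 157, while Ly6g, Mpo and Elane had no row. Sums of the 2 neuronal markers with a row were 4.04 with CM-IL-1 and 4.48 with CM-Veh, of the 2 lymphocyte markers 25.5 and 25.3, and of the 2 dendritic cell markers 39.2 and 38.9. Pf4, the only listed mast cell, erythroid or megakaryocyte gene with a row, is a chemokine that macrophages also express and stood at 1772 with CM-IL-1 and 1496 with CM-Veh. Il1r1 itself had low means of 9.57 with CM-IL-1, against 8.69 with CM-Veh and 2.88 in RPMI. Because the libraries read the 3′ end of transcripts, and the sources used here do not give the deleted part of the gene, these reads do not check the knockout.

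To count genes, the mean with CM-IL-1 was divided by the mean with CM-Veh, and genes whose 2 means averaged at least 10 were taken (6701 of 11200). A gene was counted as higher with CM-IL-1 at a ratio over 1.5 and as lower at a ratio under 1/1.5. Of the 6701 genes, 147 were higher (2.19%) and 183 were lower (2.73%) with CM-IL-1, while 6371 lay between the limits. At a limit of 2-fold, 47 genes were higher and 13 were lower. The median log2 ratio over all 6701 genes was −0.12, a ratio of 0.922, so that a gene at a ratio of 1 lay above the middle of all genes. Counted from that median, 221 genes were past 1.5-fold on the higher side and 92 on the lower side, which turns the split from 44.5% to 70.6% higher. The side to which more genes lean thus depends on the scaling, and gene lists are compared below with the median of −0.12. Counts of list members past the limit are to be read beside the 2.19% higher and 2.73% lower over all genes. The lists were chosen with earlier results of these data known, so their counts and the order of their medians are descriptions and not independent evidence. A list median between −0.12 and 0 is negative as it stands and positive when counted from all genes. The genes just inside the limit were Tgfbi at 1.501-fold higher and Nlk at 1.502-fold lower, and those just outside were Ell at 1.499-fold higher and Nr1h3 at 1.4997-fold lower.

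The share of lower genes varied with their level. Among 3086 genes with an average of 10 to 30, 56 were higher and 137 lower with CM-IL-1, at a median log2 ratio of −0.16. Among 297 genes with an average of 300 to 1000, 12 were higher and 0 lower, at a median of −0.04, and among 74 genes of at least 1000, 2 were higher and 0 lower. Low genes are measured with fewer reads, but the number of reads is not known here.

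**Figure D1:**
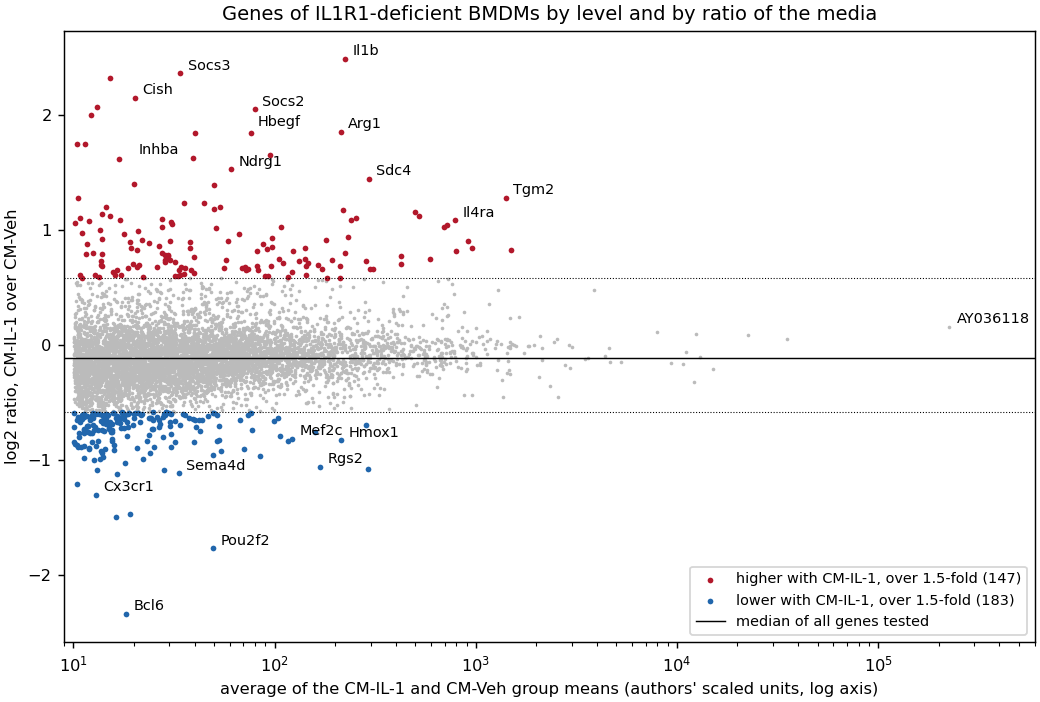
Each point is 1 of the 6701 genes, with the average of its CM-IL-1 and CM-Veh means on the x axis (authors' scaled units, log axis) and the log2 ratio of CM-IL-1 over CM-Veh on the y axis. Red points are the 147 genes past 1.5-fold higher, blue points the 183 past 1.5-fold lower, dotted lines mark the limit and the solid line is the median of −0.12; the points between 2 and 2.5 are fewer than 10 genes, and all blue points lie at averages below 300.

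Feedback inhibitors of JAK-STAT signaling were among the genes with the largest folds. Socs3, which binds the IL-6 receptor subunit gp130 and JAK kinases and limits STAT3 activation, had a mean of 57.0 with CM-IL-1, against 11.0 with CM-Veh and 1.21 in RPMI, a 5.16-fold difference between the glial media. Cish, a SOCS family inhibitor induced through STAT5, stood at 33.1 with CM-IL-1, against 7.44 with CM-Veh and 0.412 in RPMI. Socs2, another member of that family, stood at 129 with CM-IL-1, against 31.1 with CM-Veh and 3.14 in RPMI. The 3 inhibitors differed between the media by log2 ratios of 2.37, 2.15 and 2.05, and each had its lowest mean in RPMI. In GENCODE vM21 on GRCm38 the gene Socs3 spans chr11:117966079-117970047, Cish chr9:107296026-107302784 and Socs2 chr10:95385362-95417180.

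Some receptors and kinases of these pathways were past the limit as well, and others were not. Il4ra, the receptor chain shared by IL-4 and IL-13, had a mean of 1072 with CM-IL-1, against 505 with CM-Veh and 94.1 in RPMI. Csf2rb, the common signaling chain of the receptors for GM-CSF, IL-3 and IL-5, stood at 1195 with CM-IL-1, against 637 with CM-Veh and 237 in RPMI, a value that is uncertain because Csf2rb2 is a near-identical neighbor. Csf2rb2 itself stood at 121 with CM-IL-1 and 96.7 with CM-Veh, short of the limit. The specific chains of the GM-CSF and IL-3 receptors, Csf2ra and Il3ra, were also short of it, at 126 and 22.3 with CM-IL-1, against 140.0 and 22.5 with CM-Veh. The list of CSF receptors and response genes had 3 of 15 tested members higher (Csf2rb, Egr2 and Plaur), 2 lower (Plau and Cx3cr1) and a median log2 ratio of −0.01. Jak2, a kinase of the receptors for GM-CSF, IL-3 and several hormones, had means of 39.2 with CM-IL-1 and 20.9 with CM-Veh. Il21r, the IL-21 receptor, had means of 202 with CM-IL-1 and 125 with CM-Veh. The kinase Pim1, a classical STAT target, was 2.25-fold higher, at 304 with CM-IL-1 and 135 with CM-Veh, and the prothrombinase gene Fgl2 was 1.96-fold higher.

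Bcl6, a transcriptional repressor of inflammatory and STAT target genes, went the other way and was the gene with the largest fold on the lower side. Its mean was 6.03 with CM-IL-1, against 30.6 with CM-Veh and 59.8 in RPMI, a 5.08-fold difference between the media (log2 ratio −2.34). The gene spans chr16:23965052-23988852. Over the whole list of JAK-STAT and IL-6 family genes, 8 of 21 tested members were higher with CM-IL-1 and 1 was lower, at a median log2 ratio of 0.33 against −0.12 over all genes. The IL-6 receptor chains and Stat3 were short of the limit. Il6ra, the IL-6 receptor, had means of 30.2 with CM-IL-1 and 33.4 with CM-Veh, Il6st, which encodes gp130, 59.7 and 57.0, and Stat3 had 287 with CM-IL-1 and 232 with CM-Veh. Il10ra and Il10rb, the chains of the IL-10 receptor, were short of it too, at 24.3 and 99.5 with CM-IL-1, against 23.04 and 104.5 with CM-Veh. The list thus held genes far out on both sides, with Socs3 and Cish on the higher side and Bcl6 on the lower.

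**Figure D2:**
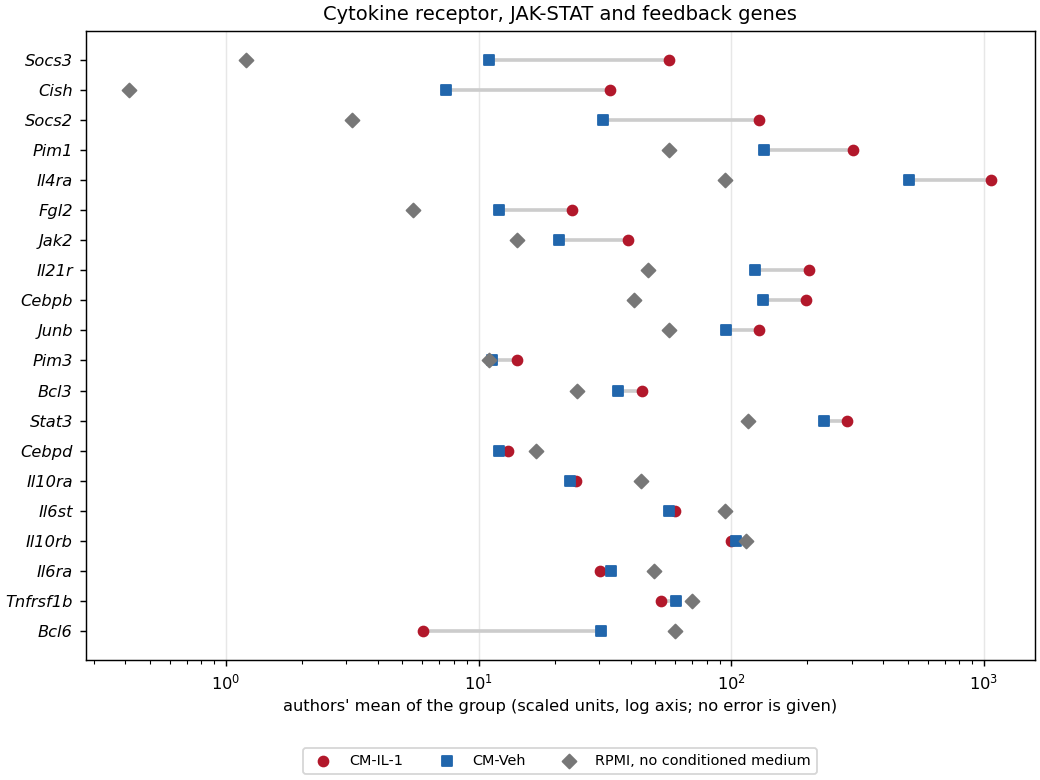
Authors' means (x axis, scaled units, log axis, no error known) of 20 tested JAK-STAT and IL-6 family genes, sorted by their ratio. Red circles are CM-IL-1, blue squares CM-Veh and gray diamonds RPMI; Socs3, Cish and Socs2 at the top are separated by more than 4-fold between the glial media, the symbols of Il6st and Il6ra nearly touch, and Bcl6 at the bottom has the opposite order of media.

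The STAT pattern was also counted over all promoter windows. A window was found by symbol for 109 of the 147 higher genes, 129 of the 183 lower genes and 5231 of the 6701 genes tested, and a gene counted if any of its windows held a match on either strand. TTCNNNGAA was in 16 of 109 higher genes (14.7%), 10 of 129 lower genes (7.75%) and 7.95% of all genes. Higher genes with a match included Cish, Socs3, Sphk1, Fgl2, Pde4b and Gbp7, and lower ones Bcl6, Mef2c and Mcm5. Socs2, Pim1, Il4ra, Jak2 and Csf2rb, which were also higher, were not among the genes with a match. Either their windows held none or no window was found by symbol. The AP-1 pattern TGANTCA was in 15.6% of higher genes, 7.75% of lower genes and 6.40% of all genes. The interferon response element named ISRE was in 9.17% of higher genes, 2.33% of lower genes and 4.01% of all genes, and an NF-kB pattern was in 5.50%, 3.88% and 3.52%. The C/EBP pattern TTGCNNAA was in 10.1% of higher genes, 14.7% of lower genes and 9.85% of all genes, and the E-box CACGTG in 13.8%, 13.2% and 13.3%. The CRE pattern TGACGTCA was in 0.917% of higher genes, 3.88% of lower genes and 3.65% of all genes. A serum response element was in 0 higher and 0 lower genes and in 2 of all genes. Patterns were counted independently, matches of different patterns can share bases, and the shares are descriptions with no test.

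Il1b, which encodes IL-1β, had the largest fold of all genes tested. Its mean was 382 with CM-IL-1, against 67.9 with CM-Veh and 7.50 in RPMI, a 5.62-fold difference between the glial media (log2 ratio 2.49). The gene spans chr2:129364570-129371139. Il1rn, which encodes the antagonist that blocks the IL-1 receptor, was 2.06-fold higher, at 967 with CM-IL-1, against 469 with CM-Veh and 96.0 in RPMI. Nlrp3, a sensor of the inflammasome that leads to cleavage of pro-IL-1β, stood at 48.6 with CM-IL-1, against 27.1 with CM-Veh and 10.4 in RPMI. The inflammasome partners differed less, with Casp1 at 59.9 with CM-IL-1 and 51.1 with CM-Veh and the adaptor Pycard at 86.4 and 89.8. The Il1r1 partner Il1rap was too low to be counted, at 3.85 with CM-IL-1 and 1.96 with CM-Veh.

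The rest of the inflammatory cytokine list gave few values. Of 22 cytokines and related mediators 8 had a row and 5 were tested, with 2 higher, 0 lower and a median log2 ratio of 0.06. Tnf, which encodes TNF, stood at 18.5 with CM-IL-1, against 26.4 with CM-Veh and 17.0 in RPMI, short of the limit. Ebi3, a subunit of IL-27 and IL-35, stood at 54.1 with CM-IL-1 and 59.9 with CM-Veh. Il6, Il1a, Il10, Il12b, Nos2 and Ptgs2 had no row in the table. Osm, a cytokine of the IL-6 family, was below the level minimum at 12.2 with CM-IL-1 and 4.92 with CM-Veh.

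Chemokines lay higher as a list, with 5 of 12 tested members higher, 0 lower and a median log2 ratio of 0.48. Cxcl2, which attracts neutrophils through CXCR2, had a mean of 347 with CM-IL-1, against 161 with CM-Veh and 41.3 in RPMI. Ccl7, a ligand of CCR2 and CCR1, had a mean of 328 with CM-IL-1, against 154 with CM-Veh and 8.76 in RPMI. Ccl2, the main attractant of monocytes, stood at 76.8 with CM-IL-1, against 41.0 with CM-Veh and 3.93 in RPMI. Ppbp and Ccl4 completed the 5 higher members, at 28.7 and 117 with CM-IL-1, against 15.2 and 65.8 with CM-Veh. The abundant chemokines Ccl6 and Ccl9 stood at 4529 and 1510 with CM-IL-1, against 3252 and 1082 with CM-Veh, which is short of the limit. Ccl3 and Ccl5 differed by less than 1.1-fold. The separation of the media was thus found in part of the chemokines and not in all of them.

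Genes linked to alternative activation, the state that IL-4 and IL-13 induce in macrophages, had the highest median of the lists with more than 10 tested members. Of the 28 genes on this list 17 had a row, 11 had none and 14 were tested. Among the 14 tested members 9 were higher with CM-IL-1 and 0 were lower, at a median log2 ratio of 0.73 against −0.12 over all genes. Arg1, the arginase that turns arginine into ornithine and urea, had a mean of 333 with CM-IL-1, against 92.1 with CM-Veh and 6.45 in RPMI, a log2 ratio of 1.86 between the media. Tgm2, a transglutaminase that crosslinks proteins, was among the most abundant of the higher genes at 2005 with CM-IL-1, against 824 with CM-Veh and 97.1 in RPMI. Arg1 spans chr10:24915221-24927484 and Tgm2 chr2:158116402-158146436. Egr2, a zinc finger factor of this state, stood at 23.1 with CM-IL-1, against 10.9 with CM-Veh and 9.59 in RPMI. The lectin receptors of the list were higher too. Clec7a, the receptor for β-glucan, stood at 1237 with CM-IL-1 and 688 with CM-Veh, Mrc1, the mannose receptor, at 355 and 214, and Clec10a at 35.4 and 21.4. Socs2, Il4ra and Vegfa are the other members past the limit and also stand on other lists. Igf1, a growth factor of the list, had means of 281 with CM-IL-1, against 379 with CM-Veh and 488 in RPMI, and Retnla, Cd163 and Mgl2 had no row. The study names 6 genes as markers of macrophage states, which it chose on these samples, so they are not independent evidence. Of these, Il1b, Socs3, Arg1 and Sphk1 were past the limit. Tlr4 stood at 35.9 with CM-IL-1 and 24.3 with CM-Veh, a 1.48-fold difference, and Tgfb1 at 104 and 76.9.

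**Figure D3:**
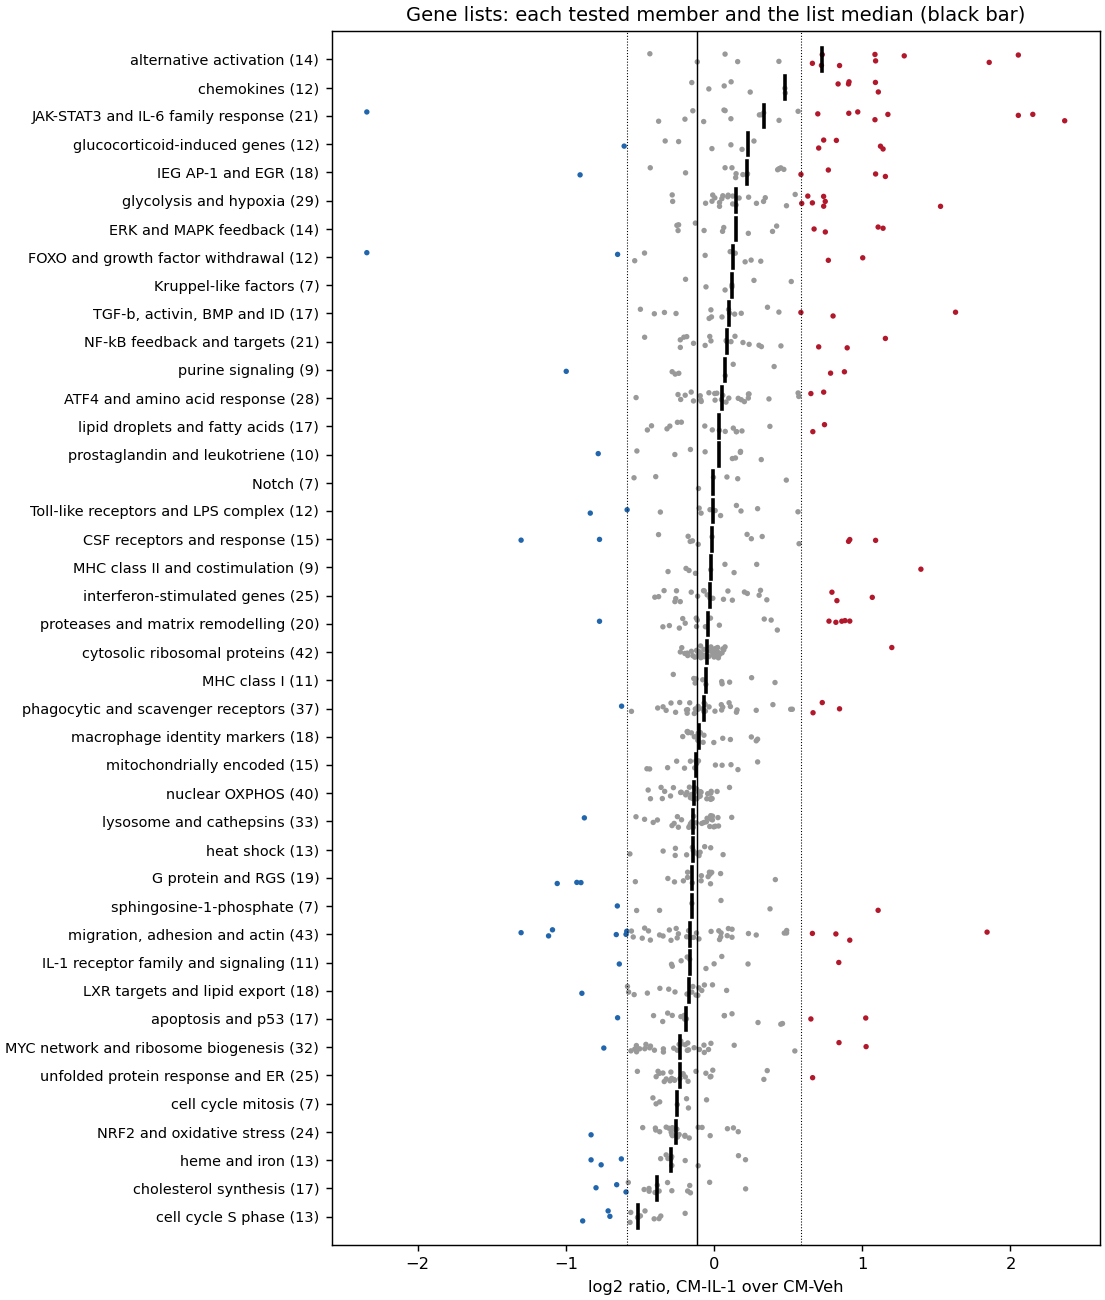
Each row is a gene list with the number of tested members in parentheses, each point is a member at its log2 ratio of CM-IL-1 over CM-Veh (x axis), and the black bar is the list median. The solid line is the median of all genes (−0.12) and dotted lines mark 1.5-fold. Alternative activation (0.73), chemokines (0.48) and JAK-STAT (0.33) stand at the top, and S phase (−0.51) and cholesterol synthesis (−0.38) at the bottom.

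The next genes encode growth factors and surface or nuclear receptors, which come from different lists and were not counted as a group. Hbegf, a membrane-bound ligand of the epidermal growth factor receptor, stood at 119 with CM-IL-1, against 33.1 with CM-Veh and 5.08 in RPMI, a 3.59-fold difference. Inhba, the subunit of activin A, stood at 59.3 with CM-IL-1, against 19.2 with CM-Veh and 1.75 in RPMI, a 3.09-fold difference. Both were low in RPMI and highest with CM-IL-1. Vegfa, the vascular growth factor, stood at 380 with CM-IL-1, against 240 with CM-Veh and 46.5 in RPMI. Sdc4, a syndecan that carries heparan sulfate and binds growth factors, stood at 429 with CM-IL-1, against 158 with CM-Veh and 76.5 in RPMI. Cd274, which encodes the checkpoint ligand PD-L1, stood at 72.0 with CM-IL-1, against 27.4 with CM-Veh and 18.4 in RPMI. Vdr, the vitamin D receptor, stood at 50.1 with CM-IL-1, against 21.2 with CM-Veh and 3.23 in RPMI.

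TGF-β and activin genes were higher in part. Of 17 tested members of that list 3 were higher and 0 lower, with a median log2 ratio of 0.10. Beside Inhba these were Pmepa1, an inhibitor of SMAD signaling, at 283 with CM-IL-1, against 162 with CM-Veh and 8.86 in RPMI, and Tgfbi, a matrix protein, at 252, against 168 and 26.2. The receptor gene Tgfbr1 stood at 17.4 with CM-IL-1 and 24.6 with CM-Veh, and Smad3 at 24.1 and 22.6.

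Immediate early genes, the first genes switched on after a stimulus, were higher in part, with 4 of 18 tested members higher, 1 lower and a median log2 ratio of 0.22. Ier3, a stress-induced survival gene, stood at 686 with CM-IL-1, against 308 with CM-Veh and 53.7 in RPMI. Btg1, an antiproliferative gene, stood at 534 with CM-IL-1 and 313 with CM-Veh. Fosl2, an AP-1 subunit, was at the limit with 219 with CM-IL-1 and 146 with CM-Veh. Atf3, a repressor induced by stress, lay on the lower side at 49.1 with CM-IL-1, against 92.0 with CM-Veh and 147 in RPMI, and Fos stood at 89.8 with CM-IL-1 and 121 with CM-Veh. Feedback genes of the ERK pathway had 4 of 14 members higher, 0 lower and a median of 0.15. The 4 were Errfi1, an inhibitor of the EGF receptor, Sphk1, which makes sphingosine-1-phosphate, Dusp5, a nuclear ERK phosphatase, and Phlda1. Their means with CM-IL-1 were 19.2, 14.8, 132 and 87.2, against 8.69, 6.86, 78.4 and 54.6 with CM-Veh. Dusp6 and Dusp1, phosphatases of the same pathway, stood at 57.0 and 35.2 with CM-IL-1, against 54.8 and 41.6 with CM-Veh.

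NF-kB feedback genes and targets had 3 of 21 tested members higher and 0 lower, at a median log2 ratio of 0.08. Beside Ier3 these were Nfkbia, the inhibitor IkBα, at 525 with CM-IL-1 and 322 with CM-Veh, and Bcl2a1d, whose reads are shared with near-identical paralogs. Tnfaip3, another inhibitor of the pathway, was below the level minimum at 3.99 with CM-IL-1 and 3.11 with CM-Veh. Icam1, an adhesion molecule, stood at 17.8 with CM-IL-1, against 24.6 with CM-Veh and 32.7 in RPMI. Interferon-stimulated genes lay near all genes, with 3 of 25 members higher, 0 lower and a median of −0.03. The 3 were Gbp7, a guanylate-binding protein, Isg15, a ubiquitin-like modifier, and Zbp1, a sensor of nucleic acids, with means of 41.4, 26.5 and 17.5 with CM-IL-1, against 19.7, 14.9 and 10.1 with CM-Veh. Most other interferon genes were close to equal between the media, such as Ifitm3 at 938 with CM-IL-1 and 985 with CM-Veh.

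Genes of glucose uptake and glycolysis past the limit were all on the higher side. Of 29 tested members of the glycolysis and hypoxia list 7 were higher with CM-IL-1 and 0 were lower, at a median log2 ratio of 0.15. Slc2a1, the glucose transporter GLUT1, stood at 177 with CM-IL-1, against 105 with CM-Veh and 27.9 in RPMI. Hk2, the hexokinase that traps glucose in the cell, stood at 242 with CM-IL-1, against 145 with CM-Veh and 38.0 in RPMI. Slc16a3, the lactate exporter MCT4, stood at 148 with CM-IL-1, against 95.4 with CM-Veh and 30.2 in RPMI. Hif1a, the hypoxia-inducible factor, stood at 140 with CM-IL-1 and 93.1 with CM-Veh, just past the limit. Ndrg1, a stress and hypoxia gene, had the largest fold of the list, at 90.5 with CM-IL-1, against 31.4 with CM-Veh and 31.5 in RPMI. Ndrg1 thus differed between the glial media while CM-Veh and RPMI had about the same mean. Enzymes further down the pathway differed less, such as Ldha with 366 with CM-IL-1 and 330 with CM-Veh, Pkm with 853 and 782, and Gapdh with 200 and 208. Hilpda, which blocks the breakdown of lipid droplets, and Dgat1, which makes triglycerides, were 1.68-fold and 1.59-fold higher, with means of 738 and 44.1 with CM-IL-1 against 440 and 27.8 with CM-Veh.

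The list of glucocorticoid-induced genes had 5 of 12 tested members higher, 1 lower and a median log2 ratio of 0.23. The 5 were Mt1, Mt2, Errfi1, Nfkbia and Ddit4, which metals, growth factors, NF-kB or stress also induce. The metallothioneins Mt2 and Mt1, which bind zinc and copper, stood at 719 and 1905 with CM-IL-1, against 330 and 1075 with CM-Veh and 396 and 748 in RPMI. Tsc22d3 and Fkbp5, which glucocorticoids induce in many cells, stood at 16.6 and 8.74 with CM-IL-1, against 20.9 and 11.2 with CM-Veh, and Fkbp5 was below the level minimum. Anxa1, an anti-inflammatory annexin, was on the lower side at 40.9 with CM-IL-1, against 62.3 with CM-Veh and 73.5 in RPMI, and it lost the limit when counted from the median of all genes, when rescaled and with a pseudocount of 5. Cdkn1a, the cell cycle inhibitor p21, was 2.03-fold higher, at 934 with CM-IL-1, against 459 with CM-Veh and 392 in RPMI. It stands on the list of apoptosis and p53 genes, which had 2 of 17 tested members higher, 1 lower and a median log2 ratio of −0.19. The other higher member was Sesn2, a stress-induced sestrin, at 20.1 with CM-IL-1 and 12.8 with CM-Veh, and it lost the limit with a pseudocount of 5. Bcl2l11, which encodes the cell death activator BIM, was the lower one at 33.7 with CM-IL-1 and 52.9 with CM-Veh. Bcl2l11 lost the limit when counted from the median of all genes, with a pseudocount of 5 and when centered on bins of level. Mdm2, another p53 target, had 90.1 with CM-IL-1 and 112 with CM-Veh, short of the limit.

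Receptors for phagocytosis and scavenging lay close to all genes, with 3 of 37 tested members higher, 1 lower and a median log2 ratio of −0.07. Clec7a, Mrc1 and Fcgr2b, the inhibitory Fcγ receptor, were the 3 higher members, and Fcgr2b stood at 68.5 with CM-IL-1 and 43.1 with CM-Veh. The activating Fcγ receptor genes Fcgr3 and Fcgr4 stood at 897 and 130 with CM-IL-1, against 622 and 91.1 with CM-Veh, short of the limit. Gas6, the ligand that bridges dying cells to the receptors AXL and MERTK, was the lower member at 21.8 with CM-IL-1, against 33.7 with CM-Veh and 49.6 in RPMI, and it lost the limit when counted from the median of all genes, when rescaled and with a pseudocount of 5. Mertk and Axl stood at 74.3 and 40.9 with CM-IL-1, against 84.3 and 38.2 with CM-Veh.

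Matrix proteases and their inhibitors had 5 of 20 tested members higher, 1 lower and a median of −0.04. Timp1 and Timp3, inhibitors of matrix metalloproteinases, stood at 34.3 and 15.2 with CM-IL-1, against 18.9 and 8.22 with CM-Veh. Plaur, the receptor for urokinase, stood at 235 with CM-IL-1, against 124 with CM-Veh and 30.8 in RPMI, whereas Plau, which encodes urokinase itself, stood at 22.5 with CM-IL-1, against 38.5 with CM-Veh and 23.2 in RPMI. The receptor and its ligand thus lay on opposite sides of the limit. Thbs1, which encodes thrombospondin-1, stood at 1020 with CM-IL-1, against 577 with CM-Veh and 112 in RPMI.

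Genes of migration and adhesion went both ways, with 4 of 43 tested members higher, 6 lower and a median of −0.16. The 4 were Hbegf, Plaur, Thbs1 and Vegfa. Cx3cr1, the fractalkine receptor of resident macrophages, stood at 7.44 with CM-IL-1, against 18.4 with CM-Veh and 19.9 in RPMI, a log2 ratio of −1.30. Sema4d, a semaphorin of immune cells, stood at 21.1 with CM-IL-1, against 45.8 with CM-Veh and 66.6 in RPMI. The integrin chains Itga4 and Itgal stood at 15.01 and 8.02 with CM-IL-1, against 22.7 and 12.1 with CM-Veh, and Nrp1, a coreceptor for semaphorins and VEGF, stood at 76.7 with CM-IL-1 and 121 with CM-Veh. The sixth lower member was Pfn1, an actin-binding protein, at 8.36 with CM-IL-1 and 17.8 with CM-Veh. Its average of 13.1 is close to the level minimum, so its fold is uncertain. Counted from the median of all genes, 3 members were lower and 7 were higher, so the balance of this list rests on the scaling. The actin gene Actb differed little, at 23127 with CM-IL-1 and 21748 with CM-Veh.

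Folds on the lower side were mostly smaller than on the higher side, with Bcl6 as an exception. Pou2f2, the B cell and macrophage transcription factor OCT2, stood at 22.4 with CM-IL-1, against 76.6 with CM-Veh and 154 in RPMI, a 3.42-fold difference. The gene spans chr7:25087344-25179726. Mef2c, a transcription factor of muscle and myeloid cells, stood at 88.7 with CM-IL-1, against 156 with CM-Veh and 251 in RPMI. Tnfrsf11a, the receptor RANK, stood at 38.2 with CM-IL-1, against 67.9 with CM-Veh and 57.3 in RPMI. Rgs2 and Rgs1, which end signaling of G protein-coupled receptors, stood at 110 and 37.3 with CM-IL-1, against 228 and 70.8 with CM-Veh and 399 and 74.9 in RPMI. With the G protein subunit Gnb2 they were the 3 lower members of 19 tested in that list, in which 0 were higher and the median was −0.15. Rassf4, a gene of the RAS association family, stood at 57.1 with CM-IL-1, against 112 with CM-Veh and 328 in RPMI. Cd180, a Toll-like receptor homolog, and Tlr7, a receptor for RNA, were the 2 lower of 12 tested genes of the Toll-like receptor list, at 37.2 and 19.9 with CM-IL-1, against 66.4 and 29.9 with CM-Veh, and Tlr7 lost the limit when counted from the median of all genes. P2rx7, the ATP-gated channel, stood at 8.39 with CM-IL-1, against 16.8 with CM-Veh and 30.2 in RPMI, while P2ry2, another ATP receptor, was higher at 36.2 with CM-IL-1 and 21.0 with CM-Veh. Gm10800 and Gm10719, which resemble repeats, were lower by 2.12-fold and 1.79-fold, and their reads cannot be assigned with certainty.

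**Figure D4:**
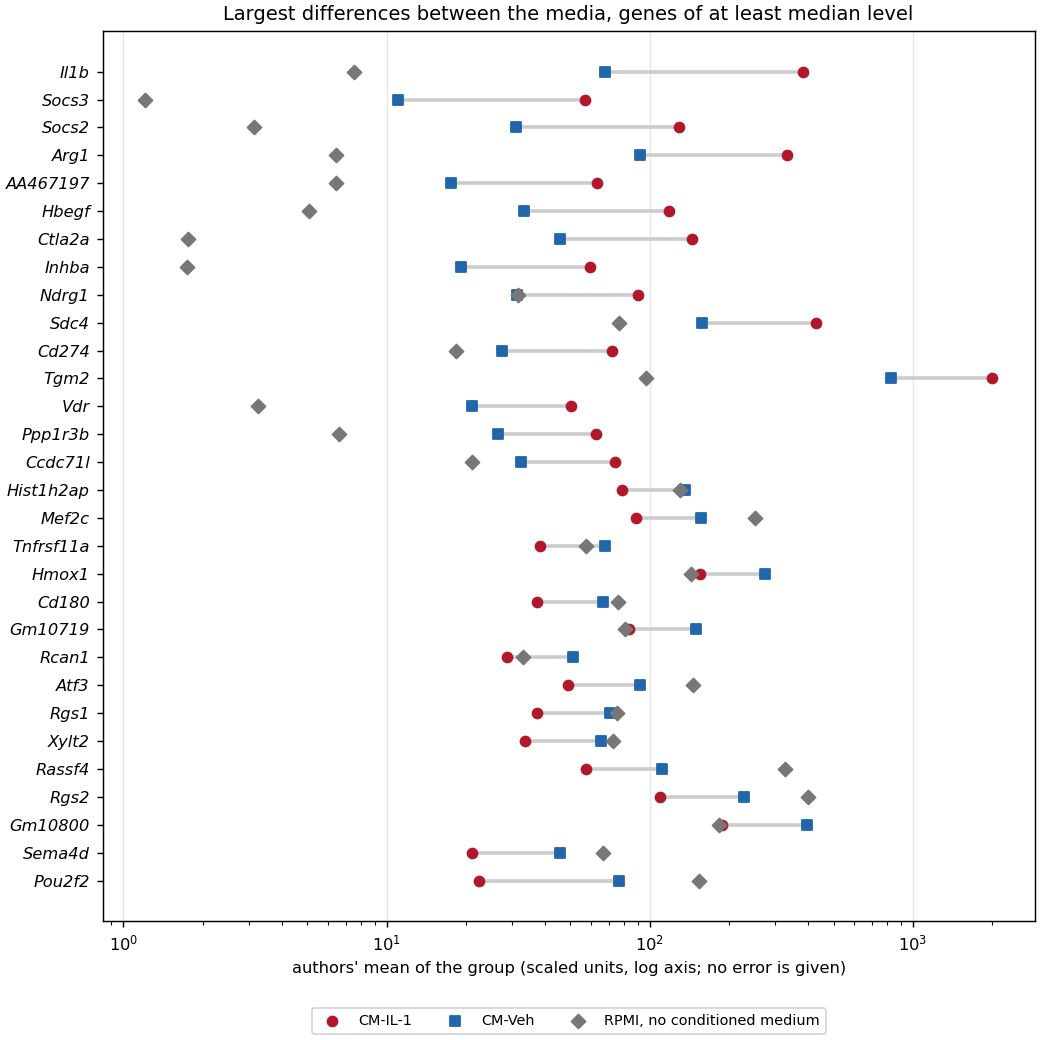
The 15 genes with the largest fold on each side among genes of at least median level, with the authors' mean on the x axis (scaled units, log axis, no error known). Red circles are CM-IL-1, blue squares CM-Veh and gray diamonds RPMI; in the upper 15 genes the RPMI mean lies at or below that of CM-Veh in all but Ndrg1, where 31.5 in RPMI is slightly above 31.4 with CM-Veh, and in the lower 15 it varies.

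Heme and iron genes lay below all genes, with 3 of 13 tested members lower, 0 higher and a median log2 ratio of −0.29. Over all genes tested, 2.73% were lower and 2.19% were higher. Hmox1, the enzyme that breaks down heme, stood at 155 with CM-IL-1, against 275 with CM-Veh and 144 in RPMI. Its mean with CM-IL-1 was thus close to that in RPMI. Slc40a1, the iron exporter ferroportin, stood at 8.72 with CM-IL-1, against 14.8 with CM-Veh and 54.2 in RPMI, and Ncoa4, the receptor that delivers ferritin to lysosomes, at 20.5, against 31.7 and 50.8. Ncoa4 was short of the limit when counted from the median of all genes. The ferritin genes Fth1 and Ftl1 stood at 10835 and 12566 with CM-IL-1, against 13559 and 13538 with CM-Veh. The NRF2 list, whose members respond to oxidative stress and include Hmox1, had 1 of 24 tested members lower, 0 higher and a median of −0.26.

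Cholesterol synthesis had 3 of 17 tested members lower, 0 higher and a median log2 ratio of −0.38. These were Hmgcs1, which makes HMG-CoA, Fdft1, the squalene synthase, and Insig1, a sterol sensor of the endoplasmic reticulum, at 52.5, 12.7 and 13.5 with CM-IL-1, against 82.7, 19.1 and 23.5 with CM-Veh. In RPMI the 3 lower members stood at 63.0, 12.8 and 16.3, each between its means with the glial media. Counted from the median of all genes, only Insig1 stayed past the limit.

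Replication genes had the lowest median of the lists with more than 10 tested members, at −0.51, with 3 of 13 tested members lower and 0 higher. Mcm3, Mcm5 and Mcm6, subunits of the helicase that opens DNA for replication, stood at 22.96, 14.1 and 17.6 with CM-IL-1, against 37.4, 23.2 and 32.6 with CM-Veh and 56.1, 29.6 and 46.4 in RPMI. Every tested member lay below a ratio of 1, the highest at a log2 ratio of −0.20. Mitotic genes, of which 7 were tested, had 0 members past the limit and a median of −0.25, and Mki67 stood at 17.8 with CM-IL-1 and 22.97 with CM-Veh. In bulk RNA, fewer dividing cells and less of such RNA per cell cannot be told apart. Most of these genes are low, and genes with an average of 10 to 30 had a median of −0.16.

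Other gene groups mostly had medians near that of all genes, of which 2.19% were higher and 2.73% lower. The unfolded protein response and MYC lists lay below that median, with 7 of 25 and 9 of 32 tested members above it. Cytosolic ribosomal protein genes had a median log2 ratio of −0.05 over 42 tested members, of which 1 was past the limit. That gene, Rpl10, has near-identical copies elsewhere in the genome and a value that is uncertain. Nuclear genes of oxidative phosphorylation had a median of −0.14 with 0 of 40 past the limit, mitochondrially encoded genes −0.12 with 0 of 15, and MHC class I genes −0.06 with 0 of 11. Lysosomal genes had a median of −0.14, and the 1 lower member of 33 was Tfeb, a transcription factor that drives lysosomal genes, at 7.32 with CM-IL-1 and 13.4 with CM-Veh. Genes of the unfolded protein response had a median of −0.23 with 1 of 25 higher, Xbp1, a transcription factor of that response, at 90.0 with CM-IL-1 and 56.8 with CM-Veh. Genes of MHC class II and costimulation had a median of −0.02, and of the 9 tested Cd274 alone was past the limit, while H2-Ab1 stood at 38.6 with CM-IL-1 and 42.1 with CM-Veh. Genes of MYC and ribosome biogenesis had a median of −0.23 over 32 members, with 2 higher and 1 lower. The higher ones were Mxi1, an antagonist of MYC, at 182 with CM-IL-1 and 101 with CM-Veh, and Arrdc4, a glucose-responsive arrestin, at 37.0 and 18.2. The lower one was Mxd4, another antagonist of MYC, at 9.49 with CM-IL-1 and 15.9 with CM-Veh, and it lost the limit with a pseudocount of 5 and when centered on bins of level. Heat shock genes had a median of −0.14 with 0 of 13 past the limit, LXR target genes −0.17 with 1 of 18 lower, and ATF4 target genes 0.05 with 2 of 28 higher.

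For some receptors, values of the ligand in the glia can be set beside them, from a separate table of 3 EGC libraries given IL-1β and 3 given vehicle that was scaled on its own. Il6 stood at 13.4 in EGCs given IL-1β and 5.58 in EGCs given vehicle, and its receptor genes Il6ra and Il6st in BMDMs are given above. Csf1, the macrophage growth factor, stood at 137 in EGCs given IL-1β and 106 in EGCs given vehicle, and its receptor Csf1r in BMDMs at 728 with CM-IL-1, against 784 with CM-Veh and 943 in RPMI. Ccl7 stood at 227 in EGCs given IL-1β and 76.8 in EGCs given vehicle, and its receptor Ccr1 in BMDMs at 97.3 with CM-IL-1, against 69.3 with CM-Veh and 12.8 in RPMI. Inhba in EGCs stood at 31.7 with IL-1β and 24.95 with vehicle. Gas6 stood at 36.4 in EGCs given IL-1β and 387 in EGCs given vehicle, and its receptors Axl and Mertk in BMDMs are given above. Saa3 stood at 12316 and 5869 in these EGCs, and Tlr2 in BMDMs at 36.0 with CM-IL-1 and 35.8 with CM-Veh. Cxcl10 stood at 14.2 and 0.678 in these EGCs, and Cxcr3 in BMDMs was low, at 0.878 with CM-IL-1 and 0.982 with CM-Veh. Il4, Il13, Csf2, Csf3, Lif and Tnf had no row in the glial table, and Cxcr2 and Ccr2 had none in that of the macrophages. A missing row does not show that a gene is not expressed. The study names Csf3 among the genes most induced by IL-1β in EGCs. By qPCR of ribosome-bound RNA from EGCs it also reports Csf3 and TNFα as induced. The EGC values above are RNA levels in the cells that made the medium, and the proteins in the medium were not analysed here. Their part in the differences between BMDMs was not tested.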

How the data were processed

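RNA of IL1R1-deficient BMDMs exposed for 3 h to CM-IL-1, CM-Veh or RPMI (4 libraries each) and of EGCs (3 per group) was made into stranded 3′ libraries and sequenced single-end. Samples were grouped by their labels. The submitters' processing notes name cutadapt, STAR and Partek on mm10, without versions. The deposited values are the authors' least-squares means per group, a signal scaled to nearly equal column sums. The sources do not tell CPM from TPM. The tables hold 8 such columns, of which 5 were used and 3 are repeats, and 0 columns per sample. A further 16 columns hold the authors' own comparisons (p-values, adjusted p-values, ratios and folds) and were not used. Depth per library, spread and precision are therefore unknown, and no test was made. The study does not say whether libraries were separate cultures.

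Ratios of the 2 glial media were computed in Python 3.11.15 with pandas 2.3.3 and numpy 2.4.6, and plots were drawn with matplotlib 3.10.9. Genes with an average of both means of at least 10 were taken, no pseudocount was added, and a gene counted past a ratio of 1.5 in either direction. The steps were tested on simulated data. Lists (52 in all) were described by counts and medians. The comparison and the lists were chosen with earlier results of these data known. Named genes were those the study names, the 15 largest folds each way among genes of at least median level, the 4 largest of each list, members past the limit against their list, and Il1r1, Il1rap and Csf1r, with the most abundant markers. Other genes were chosen after their values were seen. Gene positions come from GENCODE vM21 (GRCm38) and promoter windows of 300 bases from RefSeq (GRCm38.p6), matched by symbol. Symbols turned into dates (7) were left unnamed. Alternatives were other minimum levels, pseudocounts, a 2-fold limit and other scalings. A few list members are left unnamed but stay in the counts.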

Additional observations from a re-analysis of the deposited data

How the results depend on the processing

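The number of genes past the limit depended on the minimum level and on the scaling. With the main settings 147 genes were higher and 183 lower with CM-IL-1 (44.5% higher). With a minimum level of 1 there were 303 and 920 (24.8% higher), with none 304 and 932 (24.6%), and with a minimum of 50 there were 67 and 21 (76.1%). A pseudocount of 5 gave 114 and 68 (62.6%). Centering on the median of all genes gave 221 and 92 (70.6%), and a limit of 2-fold 47 and 13 (78.3%). Rescaling without the 10 most abundant genes gave 169 and 137 (55.2%). Centering on the medians of 20 bins of level, an alternative chosen after seeing the data, gave 219 and 73 (75.0%). A pseudocount of 1 gave 136 and 143, and a minimum on the higher of the 2 media 162 and 232. Of 100 named genes past the limit, 82 stayed past it under every setting in which they met the minimum level, the 2-fold limit left aside. The other 18 fell short under at least 1, among them Tgfbi, Dgat1, Zbp1, Sesn2, Anxa1, Gas6, Tlr7, Ncoa4, Slc40a1, Hmgcs1, Fdft1, Mcm3, Mcm5, Tfeb, Bcl2l11 and Mxd4. None of the 100 changed direction, but the alternatives could not have reversed them. Minimum levels leave ratios as they are, pseudocounts only shrink them, and the other scalings shift them by less than the limit. Another minimum level alone also cannot take a gene back within the limit.

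No paired analysis was possible because the tables hold group means and no value per library. For the same reason leaving out a library and looking for batches were not run, and no difference was set against the spread between libraries.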
